A study of Rattus norvegicus with 18 samples.

Results

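Ion channel genes were followed through fracture healing in the rat femur. The genes were chosen by symbol alone: every gene whose symbol starts with Kcn (potassium channels), with Scn and a digit (sodium channels) or with Cacn (calcium channels), if a probe set of the array named it and no other gene. This gave 78 genes read by 125 probe sets, out of 4736 genes with a probe set of their own. Each gene was read by 1 probe set, the one with the highest mean log2 signal. Of the 78 genes, 33 had a mean signal of at least 100 over the 18 arrays and 45 stayed below it, against 1562 of all 4736 genes below it. Kcnk5 (100.5), Kcnh5 (104.2) and Kcnk1 (108.2) lay just inside that limit, and Kcng1 (86.2), Kcnj10 (73.7) and Scn8a (66.7) just outside it. A symbol is not a mechanism. The 78 genes are mostly subunits of voltage-gated channels, but 15 of them encode inward rectifiers, 3 encode two-pore channels and 4 encode potassium channels opened by calcium or sodium ions, and these are not gated by voltage alone or at all.

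Female Sprague-Dawley rats had surgery at 6 weeks of age (young), 26 weeks (adult) or 52 weeks (older). A rod was placed in the femur and a closed, transverse fracture was made in mid-shaft. Unfractured sham rats gave the group called no fracture, and fractured rats gave the times 3 days and 1, 2, 4 and 6 weeks. The piece analysed was the middle of the femur, with callus, cortical bone and marrow together, and each of the 18 Affymetrix rat genome arrays read RNA of 2 rats. There was 1 array per age and time, so the 3 ages stood in as replicates of a time, and p-values measure only the spread between those arrays. The study asked whether genes of nerve cells behave differently in the callus of older rats, which heal more slowly. In such a piece of tissue, fewer cells of a type and less RNA per cell cannot be told apart.

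Voltage-gated channels open when the membrane potential changes and let one kind of ion through. Sodium channels carry the upstroke of the action potential in nerve and skeletal muscle, potassium channels end it and set the resting potential, and calcium channels turn it into contraction, secretion or a signal to the nucleus. A pore subunit (the alpha subunit) forms the path for the ion, and accessory subunits (beta, gamma, alpha2delta, Kv beta) set how many channels reach the membrane and how they open. In skeletal muscle the calcium channel of the transverse tubule, built from Cacna1s, Cacnb1, Cacng1 and Cacna2d1, senses the voltage for excitation-contraction coupling, Scn4a is the sodium channel of the fibre, and Kcnj11 is the pore of its ATP-sensitive potassium channel. Other members are known for heart, neurons, kidney, blood cells or smooth muscle.

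The 250 bases before the annotated start are given for both genes with the lowest adjusted p among the members that were lower at 3 days. Cacna1s is a gene of muscle fibres, and Kcnab2 is a Kv beta subunit. The letters are those of RefSeq (GRCr8), Cacna1s at chr13:50045418-50045667 on the plus strand and Kcnab2 at chr5:168270761-168271010 on the minus strand, written from 5′ to 3′ of the gene. Both windows lie wholly before the gene's record. Capitals mark the motif CANNTG, the E-box, which reads the same on both strands.
Cacna1s: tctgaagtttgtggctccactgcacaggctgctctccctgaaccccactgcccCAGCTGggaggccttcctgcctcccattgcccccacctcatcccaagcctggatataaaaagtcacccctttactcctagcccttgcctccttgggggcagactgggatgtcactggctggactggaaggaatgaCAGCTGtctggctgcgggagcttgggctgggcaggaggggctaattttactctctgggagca
Kcnab2: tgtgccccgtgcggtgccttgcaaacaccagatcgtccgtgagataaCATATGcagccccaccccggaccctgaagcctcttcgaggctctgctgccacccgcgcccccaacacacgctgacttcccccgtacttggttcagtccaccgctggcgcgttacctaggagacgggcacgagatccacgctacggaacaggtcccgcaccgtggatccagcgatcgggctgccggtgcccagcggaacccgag
Both E-boxes of the Cacna1s window are CAGCTG, and the only one of the Kcnab2 window is another form. Over 33469 such windows of all genes, 12% held CAGCTG, which is itself one form of CANNTG, and 65.5% held any CANNTG. Of the 78 channel genes 58 had a window, and 12 of these (20.7%) held CAGCTG and 33 (56.9%) any CANNTG. A match says only that these letters are there.

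**Figure D1:**
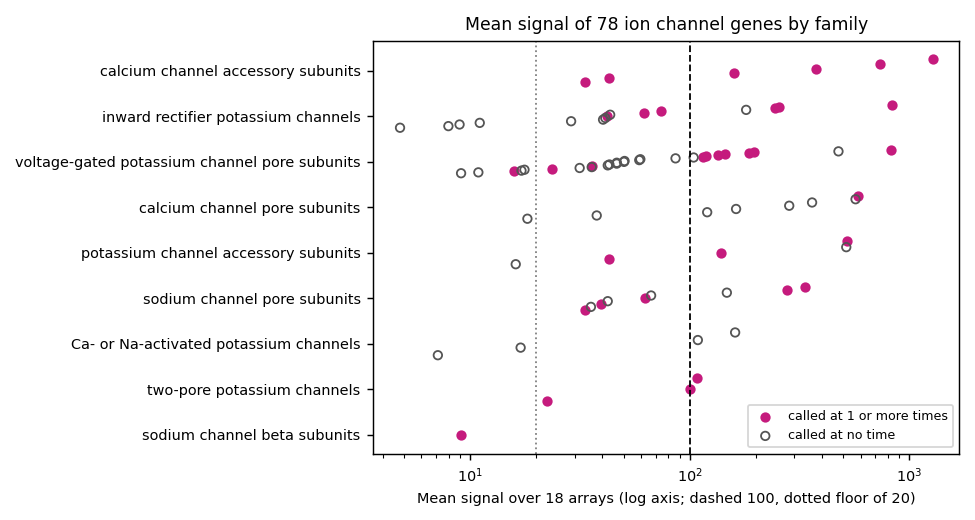
Mean signal over the 18 arrays (horizontal, log axis) of each of the 78 channel genes, 1 point per gene, by family (vertical). Filled points passed the test against no fracture at 1 or more times and open points at none. Of the 78 genes 45 lie left of the dashed line at 100.

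At 3 days after fracture more channel genes were lower than higher. In limma's fit across all 8740 probe sets, 22 of the 78 genes fell (28.2%) and 3 rose (3.85%) at an adjusted p below 0.05. Of all probe sets 20.4% fell and 18.9% rose, so the share that fell was above that of the array and the share that rose was far below it. Among the 33 channel genes with a mean signal of at least 100, 12 fell and 3 rose, and of the 5225 probe sets at or above that signal 24.7% fell and 28.1% rose. The median log2 change of the 78 genes was -0.29 and that of all probe sets -0.08. At 1 week 16 fell and 5 rose (all probe sets 17.8% and 18%). At 2 weeks 17 fell and 6 rose (16.8% and 16.1%). At 4 weeks 10 fell and 2 rose (9.7% and 11.5%), and at 6 weeks 8 fell and 1 rose (7.11% and 8.34%). From 3 days to 6 weeks 9 genes rose and 1 fell, where 10% of probe sets rose and 10.2% fell. In all, 35 of the 78 genes passed against no fracture at 1 or more times and 43 at none. Of the 35, 28 were called lower only and 7 higher only, and no gene passed in both directions. The 35 are 44.9% of the channel genes, where 50.3% of all probe sets passed at 1 or more times, 26.4% of all being lower only, 23.5% higher only and 0.423% both. With a mean signal of at least 100 the shares were 63.6% of channel genes and 64.7% of probe sets, and below it 31.1% and 28.9%. The number of called genes was thus near the background. Of the 78 genes 33 had further probe sets, and in 5 of the 43 genes without a call another probe set was called lower, as given with Cacna1a, Cacna1d, Kcnh2, Kcnj3 and Kcnj4. The comparisons with no fracture share the same 3 unfractured arrays.

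**Figure D2:**
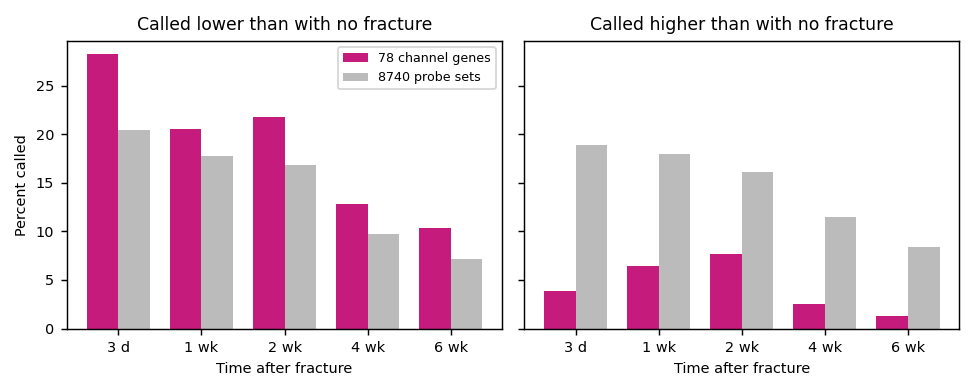
Percent called lower (left) and higher (right) than with no fracture at each time (horizontal), for the 78 channel genes and for all 8740 probe sets. At 3 days 28.2% of the channel genes were lower against 20.4% of probe sets, and 3.85% were higher against 18.9%.

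How firmly these calls stand differs between genes. Of the 90 calls of a gene at a time, 11 were called whichever age was left out, in 7 genes: Cacna1s, Scn4a, Cacnb3 and Kcnj10 at 3 days, Kcnab1 at 1 week, and Kcnab2 and Kcnj14 at 3 days, 1 week and 2 weeks. For actin, control probe sets read both ends of the transcript, and their 3′/5′ ratio tells of RNA quality. It was 2.1 to 2.61 with no fracture and 1.48 to 1.88 at 3 days. With this ratio in the model 20 of the 90 calls passed. It moved the fold of 10 calls in 5 genes by over 1.5 times, down for Scn4a, Scn7a, Kcnk1 and Kcnk5 and up for Kcnc4, and the part of RNA quality in these was not tested.

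Channel genes of skeletal muscle fell at 3 days, and 4 of the 5 that fell were not called lower at 1 week. Of 9 measured genes of the muscle channel list, 5 fell at 3 days, namely Cacna1s, Cacng1, Cacnb1, Scn4a and Kcnj11. Of all probe sets 20.4% fell at 3 days, and 24.7% of those with a mean signal of at least 100. The median log2 change of the list was -0.66. With the actin ratio in the model Cacna1s passed at 3 days (adjusted p = 0.0059). Cacng1, Kcnj11, Cacnb1 and Scn4a kept their direction but did not pass (log2 -0.94 to -0.65, adjusted p = 0.085 to 0.31). No gene of the list was called lower at 2, 4 or 6 weeks by its brightest probe set. From 3 days to 6 weeks 5 of the 9 rose, where 10% of all probe sets rose.

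Cacna1s encodes the pore and voltage sensor of the calcium channel of the transverse tubule. With no fracture its signal was 631 (young), 635 (adult) and 878 (older). At 3 days it was 183, 128 and 182 in the same order of ages. All 3 arrays at 3 days lay far below all unfractured arrays, and the fall was 4.36-fold (log2 change -2.12, SE 0.21, adjusted p = 3.4e-05). The signal was 683, 589.7 and 553 at 1 week, 432, 636 and 513 at 2 weeks, 578, 837 and 959.5 at 4 weeks and 638, 718 and 686 at 6 weeks. From 1 week on, the change against no fracture lay between a log2 of -0.44 and 0.13 and did not pass. The rise from 3 days to 6 weeks was 4.2-fold (adjusted p = 0.00012). A second, dimmer probe set of Cacna1s fell as much at 3 days (log2 change -2.20, adjusted p = 0.017). It was low again at 6 weeks, with 15.3, 74.2 and 182 against 235, 226 and 234 with no fracture (log2 change -1.84, adjusted p = 0.071), so the probe sets disagree on the last time.

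Cacng1 encodes the gamma subunit of the same channel. Its signal was 583 (young), 659.6 (adult) and 1070 (older) with no fracture. The 3-day arrays read 386, 353 and 451. The arrays did not overlap, and the fall was 1.89-fold (log2 change -0.91, SE 0.20, adjusted p = 0.0041; without the older arrays log2 -0.75, adjusted p = 0.066). At 1 week the signal was already 789, 771 and 836. It was 558, 953 and 684 at 2 weeks, 609, 833 and 891 at 4 weeks and 926, 937 and 909 at 6 weeks. The 6-week arrays were all above the 3-day arrays, a 2.34-fold rise (adjusted p = 0.0019).

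Kcnj11 encodes Kir6.2, the pore of the ATP-sensitive potassium channel of muscle and islets. With no fracture its signal was 716 (young), 994 (adult) and 1512 (older). At 3 days the arrays lay close together at 487, 503 and 504. These were all below the unfractured arrays, by 2.06-fold (log2 change -1.04, SE 0.18, adjusted p = 0.0012; without the adult arrays adjusted p = 0.053). The second probe set of the gene gave a log2 change of -1.27 (adjusted p = 0.0043) and was lower at 2 weeks as well (-0.83, adjusted p = 0.041). The signal was 754, 788 and 746 at 1 week, 712, 797 and 700.4 at 2 weeks, 660.3, 981 and 957 at 4 weeks and 1020.1, 1061 and 1064 at 6 weeks. By 6 weeks it had risen 2.11-fold from 3 days (adjusted p = 0.0026).

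Scn4a encodes Nav1.4, the sodium channel of the muscle fibre. Its signal was 314 (young), 366 (adult) and 831 (older) with no fracture, highest in the older rats. The 3-day arrays read 143, 189 and 196. The arrays did not overlap and the fall was 2.62-fold (log2 change -1.39, SE 0.30, adjusted p = 0.0038). With the actin ratio in the model the log2 change was -0.77 (adjusted p = 0.31). The probe sets of Scn4a disagreed: the second by signal had a log2 change of 0.63 (adjusted p = 0.36) and the third fell by 1.12 on the log2 scale (adjusted p = 0.049). The signal of the first was 382, 413 and 415 at 1 week, 265, 371 and 254 at 2 weeks, 206, 279.5 and 386 at 4 weeks and 393, 262 and 367 at 6 weeks. No later time passed, and the rise from 3 days to 6 weeks was 1.92-fold (adjusted p = 0.047).

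Cacnb1 encodes the beta subunit of the muscle calcium channel. Its signal was 369 (young), 656 (adult) and 473 (older) with no fracture. It was 267, 381 and 329 at 3 days and 359.7, 346 and 304 at 1 week. The 3-day arrays overlapped the unfractured ones, since the adult array at 3 days was above the young unfractured array. Within each age the 3-day array was lower, and the fall was 1.51-fold at 3 days (adjusted p = 0.03) and 1.45-fold at 1 week (adjusted p = 0.05). Neither call stood without the adult arrays (adjusted p = 0.16 and 0.34) or without the older ones (0.19 and 0.31). Later the signal was 428, 318 and 344 at 2 weeks, 327, 409 and 379.6 at 4 weeks and 387, 366 and 317 at 6 weeks, and no comparison passed.

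The other 4 genes of the muscle channel list were not called lower. Cacna2d1, described with the genes that rose, was not called at 3 days. Kcnj12, an inward rectifier, was 30.1, 24.3 and 56.1 with no fracture and 12.6, 19.7 and 26.1 at 3 days, which did not pass, and it rose 2.43-fold from 3 days to 6 weeks, when it was 53.2, 50.5 and 55.5 (adjusted p = 0.04). Its signal at 1, 2 and 4 weeks ran from 12.8 to 85.6. Kcnj2, another inward rectifier, was below the floor of 20 on all arrays. Kcnma1, the pore of the large-conductance calcium-activated potassium channel, ran from 59.8 to 165 and passed at no time.

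**Figure D3:**
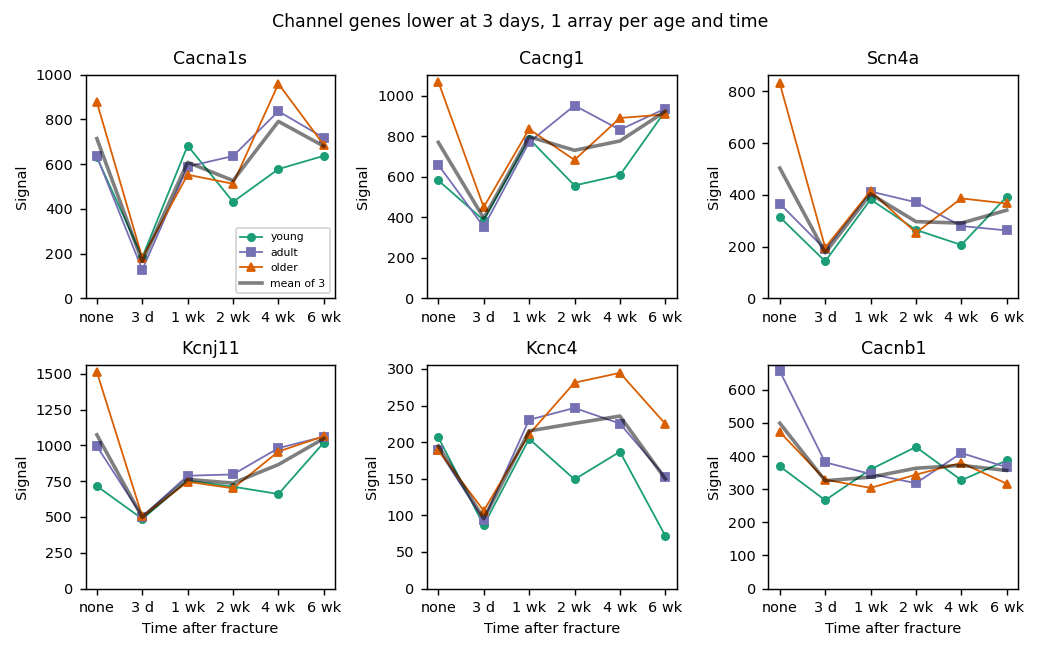
Signal (vertical, from 0) of 6 channel genes that fell at 3 days, by time after fracture (horizontal). Coloured lines are single arrays of young, adult and older rats, and the thick line is their mean. Cacna1s drops from 631 or more to 183 or less at 3 days, and every gene but Cacnb1 shows no overlap between those times.

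Kcnc4, a Kv3 potassium channel known from fast-spiking neurons and skeletal muscle, is drawn beside them. Its signal was 207 (young), 189.8 (adult) and 189 (older) with no fracture. At 3 days it was 86.4, 93.8 and 106, below all unfractured arrays, a 2.05-fold fall (log2 change -1.03, SE 0.27, adjusted p = 0.011; without the adult arrays 0.15, without the older 0.051). At 1 week it was 205, 231 and 211, and it passed at no later time.

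Markers of skeletal muscle fell at 3 days too. Of 14 measured muscle markers (such as myosins, troponins and creatine kinase) 13 fell at 3 days, with a median log2 change of -1.93. Their summed signal was 149686 to 167747 with no fracture, 41145 to 52403 at 3 days, 91740 to 123588 at 1 week and 121593 to 174585 at 6 weeks. At 1 week 4 of the 14 were called lower, with a median log2 change of -0.57, where the median of the muscle channel list was 0.0. No muscle marker was called lower at 2, 4 or 6 weeks, and 13 of 14 rose from 3 days to 6 weeks. Of 15 measured genes of excitation-contraction coupling (calcium stores, pumps and release channels) 9 fell and 1 rose at 3 days, with a median log2 change of -1.04. The part of muscle content in the falls of the channel genes was not tested.

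**Figure D4:**
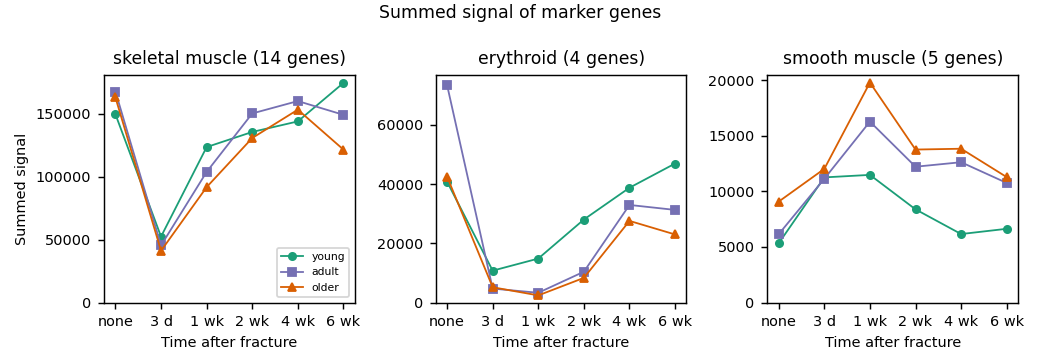
Summed signal (vertical, from 0) of the measured markers of skeletal muscle (14 genes), red cell precursors (4 genes) and smooth muscle (5 genes), by time after fracture (horizontal), 1 line per age. The muscle sum falls to between 41145 and 52403 at 3 days and is back to at least 121593 at 6 weeks.

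A second group of genes stayed low. Kcnab2, Kcnj5, Kcnj14, Kcna3 and Scn2b were called lower at all 5 times, the last pair only in values near or below the floor of 20. Kcnab2 encodes the beta2 subunit of Kv1 channels, which docks on the inner face of the pore subunits. Its signal was 1386 (young), 1209 (adult) and 1232 (older) with no fracture. At 3 days it was 479, 258 and 429, at 1 week 322, 245 and 281 and at 2 weeks 278, 287 and 310.4. At 4 weeks it was 573, 358 and 341 and at 6 weeks 576, 333 and 446. Every one of the 15 fractured arrays was below every unfractured one. The fall was 3.39-fold at 3 days (adjusted p = 4.5e-05), 4.53-fold at 1 week (3.5e-05), 4.37-fold at 2 weeks (5.3e-05), 3.09-fold at 4 weeks (0.00047) and 2.89-fold at 6 weeks (0.00086). The calls at 4 and 6 weeks were lost without the adult arrays (adjusted p = 0.051 and 0.063) and without the older ones (0.057 and 0.065). The second probe set of Kcnab2 moved less: it fell by 0.61 on the log2 scale at 1 week (adjusted p = 0.049) and by 0.87 at 2 weeks (adjusted p = 0.011), and its changes of -0.46, -0.28 and -0.48 at 3 days, 4 weeks and 6 weeks did not pass.

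Kcnj5 encodes GIRK4, an inward rectifier opened by G proteins and known from the atrium of the heart. Its signal was 149 (young), 179.7 (adult) and 115 (older) with no fracture. At 3 days it was 55.6, 47.5 and 43.5 and at 2 weeks 42.8, 24.3 and 21.8. All fractured arrays were below all unfractured ones, although at 6 weeks the young array (114) came close to the older unfractured one. The fall was 2.99-fold at 3 days (adjusted p = 0.0092), 5.14-fold at 2 weeks (0.0014) and 2.77-fold at 6 weeks (0.031). Without the older arrays no time passed, with adjusted p from 0.054 to 0.22.

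Kcnj14 encodes Kir2.4, an inward rectifier known from motor neurons of the brainstem. Its signal was 58.2 (young), 101 (adult) and 61.1 (older) with no fracture, 33.3, 53.4 and 38.7 at 3 days and 24.3, 38.8 and 26.4 at 4 weeks. All fractured arrays were below all unfractured ones. The fall ran from 1.74-fold at 3 days (adjusted p = 0.0013) to 2.44-fold at 4 weeks (adjusted p = 0.00047). The mean signal was 41.8, so these are changes at a low level.

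Markers of red cell precursors, platelets and neutrophils were also lower in this period. All 4 erythroid markers fell at 3 days, 1 week and 2 weeks and 1 of 4 at 4 and at 6 weeks. Both platelet markers fell at all 5 times. Both neutrophil and marrow markers fell at 3 days and at 1, 2 and 4 weeks. Other blood cell lists differed. Of 3 T cell markers 1 fell at 3 days, 1 week and 2 weeks and none later. Of 2 macrophage markers both rose at 2 weeks and 1 at each other time. The summed signal of the erythroid markers was 40831 to 73459 with no fracture, 4708 to 10765 at 3 days and 22991 to 46951 at 6 weeks. The part of marrow content in the falls of Kcnab2, Kcnj5 and Kcnj14 was not tested.

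Genes that rose were few. The alpha2delta subunit Cacna2d1, the target of gabapentin, was 829.9 (young), 627 (adult) and 1125 (older) with no fracture. It was 1080.1, 661 and 1133 at 3 days, 1938, 1593 and 1785 at 1 week and 1329.7, 1762 and 1656 at 2 weeks. The arrays at 1 and 2 weeks were all above the unfractured ones, by 2.11-fold (adjusted p = 0.0079) and 1.88-fold (adjusted p = 0.02). The rises did not pass without the adult arrays (adjusted p = 0.085 and 0.21) or without the older ones (0.066 and 0.10). At 4 weeks the signal was 814, 1400.4 and 1729.6 and at 6 weeks 1188, 1176 and 1191, and neither time passed.

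Cacnb3, a beta subunit of calcium channels of nerve, smooth muscle and lymphocytes, was 102 (young), 114 (adult) and 65.8 (older) with no fracture. It was 187, 203 and 153 at 3 days, 189, 148 and 188 at 1 week and 185, 203 and 209 at 2 weeks. It was 145, 179.7 and 175 at 4 weeks and 119, 166 and 143 at 6 weeks. Every fractured array was above every unfractured one. The rise was 1.96-fold at 3 days (log2 change 0.97, SE 0.20, adjusted p = 0.0033), 1.9-fold at 1 week (0.0051), 2.17-fold at 2 weeks (0.0021) and 1.81-fold at 4 weeks (0.015). At 6 weeks the log2 change was 0.63 (adjusted p = 0.062). With the actin ratio in the model none of the Cacnb3 calls passed (log2 0.61 to 0.82, adjusted p = 0.13 to 0.24). Without the older arrays the calls at 1, 2 and 4 weeks were lost (adjusted p = 0.10, 0.061 and 0.20), and without the adult arrays that at 4 weeks (0.14).

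Kcnj8 encodes Kir6.1, the pore of the ATP-sensitive potassium channel of vascular smooth muscle and pericytes. Its signal was 189.7 (young), 144 (adult) and 159 (older) with no fracture. It was 202, 266 and 263 at 3 days, 295, 282 and 236 at 1 week and 302, 361 and 292 at 2 weeks. It was 246, 269.5 and 196 at 4 weeks and 223, 320.2 and 331 at 6 weeks. All fractured arrays were above all unfractured ones. The rise was 1.48-fold at 3 days (adjusted p = 0.031), 1.65-fold at 1 week (0.011), 1.94-fold at 2 weeks (0.0029) and 1.76-fold at 6 weeks (0.015), while 4 weeks had an adjusted p of 0.066. Without the adult arrays no time passed (0.11 to 0.32). Of the pores of ATP-sensitive channels, Kcnj8 was called higher at 3 days and Kcnj11 lower. Neither call passed without the adult arrays (adjusted p = 0.32 and 0.053) or with the actin ratio in the model (0.41 and 0.085). Of 5 smooth muscle markers, 2 rose at 3 days, 5 at 1 week and 2 at 6 weeks, and their summed signal was 5331 to 9080 with no fracture and 11483 to 19788 at 1 week. The part of smooth muscle content in the rise of Kcnj8 was not tested.

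Scn7a encodes Nax, a sodium channel relative found in Schwann cells, muscle and sensory organs of the brain. Its signal was 232 (young), 139.8 (adult) and 69.1 (older) with no fracture and 213, 79.2 and 128 at 3 days. It was 478, 204 and 115 at 1 week, 482, 268 and 278 at 2 weeks and 479, 474 and 491 at 4 weeks, and at 6 weeks 264, 309 and 304. The ages differed widely up to 1 week, and at 4 weeks they met. The rise was 2.52-fold at 2 weeks (adjusted p = 0.03) and 3.68-fold at 4 weeks (adjusted p = 0.011), and it did not pass without the adult (0.15 and 0.17) or the older arrays (0.18 and 0.15). With the actin ratio in the model the log2 change at 2 weeks was 0.10 in place of 1.33 (adjusted p = 0.96) and at 4 weeks 0.85 in place of 1.88 (adjusted p = 0.27). The second probe set did not pass: its log2 changes were 0.14 and 0.28 (adjusted p = 0.71 and 0.40).

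**Figure D5:**
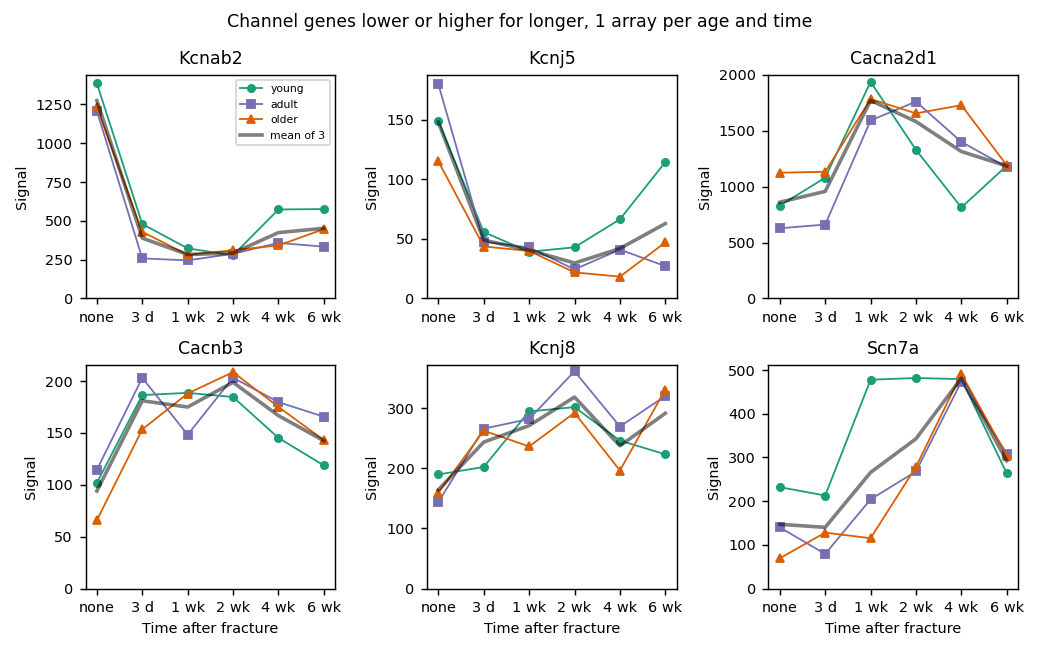
Signal (vertical, from 0) of 6 channel genes called lower or higher at more than 1 time, by time after fracture (horizontal). Coloured lines are single arrays of young, adult and older rats, and the thick line is their mean. Kcnab2 stays at 576 or less on all fractured arrays against 1209 or more with no fracture.

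Kcnk1 encodes TWIK-1, a two-pore channel that leaks potassium at rest. Its signal was 56.6 (young), 114 (adult) and 25.5 (older) with no fracture and 177, 174 and 168 at 3 days. The 3-day arrays were close together and above all unfractured arrays, by 3.16-fold (adjusted p = 0.0059), and it also rose at 1 week (2.18-fold, 0.042) and 2 weeks (2.44-fold, 0.025). With the actin ratio in the model the log2 change at 3 days was 0.34 in place of 1.66 (adjusted p = 0.69), and without the young or the older arrays adjusted p was 0.065 and 0.069. Kcnk1 was the only channel gene that fell from 3 days to 6 weeks (2.38-fold, adjusted p = 0.043).

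The other two-pore channels went the other way. Kcnk5 encodes TASK-2, a potassium channel opened by alkaline pH and known from kidney, cartilage and T cells. Its signal was 216 (young), 218 (adult) and 236 (older) with no fracture. It was 67.4, 83.8 and 57.1 at 3 days, 57.3, 69.2 and 103 at 1 week and 62.8, 62.8 and 76.2 at 2 weeks, far below the unfractured arrays. The fall was 3.25-fold at 3 days (adjusted p = 0.018), 3.01-fold at 1 week (0.027), 3.33-fold at 2 weeks (0.02) and 3.68-fold at 6 weeks (0.027). Without the older arrays none of these passed (0.15 to 0.23). With the actin ratio in the model the log2 changes at 3 days, 1 week and 2 weeks were -0.84, -0.87 and -0.98 in place of -1.70, -1.59 and -1.73 (adjusted p = 0.54, 0.47 and 0.44). Kcnk3, the acid-sensitive TASK-1, was 22.5, 60.3 and 34.8 with no fracture and 17.9, 16.8 and 18.7 at 1 week. It was called lower at 3 days and at 1, 2 and 6 weeks. Its mean signal was 22.3, close to the floor of 20, and its arrays lay all below the unfractured ones at 1 week only. Each call was lost without the adult arrays (adjusted p = 0.11 to 0.36) and without the older ones (0.15 to 0.28).

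Of the 2 remaining rises, that of Kcns3 was small and that of Kcnab1 large. Kcns3, a silent Kv subunit that modifies Kv2 channels, was 122, 101 and 110.4 with no fracture and 177, 217 and 148 at 2 weeks, a 1.61-fold rise (adjusted p = 0.046). The call was lost whichever age was left out (adjusted p = 0.12 to 0.19) and with the actin ratio in the model (0.74). Kcnab1, a second Kv beta subunit, was 31.5 (young), 39.3 (adult) and 30.5 (older) with no fracture. At 1 week it was 91.7, 122 and 85, and at 2 weeks 34, 31.7 and 24.8. It stood above all unfractured arrays at 1 week only, by 2.93-fold (log2 change 1.55, SE 0.23, adjusted p = 0.00064). Kcnab1 and Kcnab2, 2 subunits of the same family, moved in opposite directions at 1 week.

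Among the Kv pore subunits 10 of 27 passed at some time, against 50.3% of all probe sets, and 9 of the 27 had a mean signal of at least 100. Kcnq3, one of the M-channel subunits that restrain neurons, fell from 267, 356 and 219 to 124, 175 and 137 at 3 days (1.92-fold, adjusted p = 0.005). It was lower at 1, 2 and 4 weeks too, and had risen 1.6-fold from 3 days by 6 weeks (adjusted p = 0.046). Without the older arrays the call at 3 days was lost (adjusted p = 0.065), and without the adult arrays those at the other times (0.17 to 0.26).

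Of the ether-a-go-go (EAG) group 6 genes read above 100, and 4 of these were called lower at some time, with small changes. Of all probe sets with a mean signal of at least 100, 30.7% were called lower only and 64.7% passed in either direction. Kcnh8 fell 1.57-fold at 3 days (adjusted p = 0.022). Kcnh4 fell 1.51-fold at 3 days (0.044) and 1.58-fold at 2 weeks (0.033). Kcnh7 fell 1.5-fold at 4 weeks (adjusted p = 0.044). Each of these calls was lost without the adult arrays (adjusted p = 0.14 to 0.39) and with the actin ratio in the model (0.28 to 0.46). Kcnh3 was 902 (young), 1151 (adult) and 914 (older) with no fracture. It was 846, 649 and 639 at 4 weeks and 730.2, 649.5 and 631 at 6 weeks, below all unfractured arrays. The falls were 1.39-fold (adjusted p = 0.037) and 1.47-fold (adjusted p = 0.026). Its earlier values ran from 706 to 1012. Its second probe set had log2 changes of the opposite sign at these times, 0.68 and 0.66, which did not pass (adjusted p = 0.29 and 0.34), and it rose at 2 weeks (1.67, adjusted p = 0.014), so no direction can be given for Kcnh3. Kcnh2, the hERG channel of the heart, had log2 changes from -0.39 to -0.27 and passed at no time, while its second, dimmer probe set was lower at 3 days (log2 change -0.74, adjusted p = 0.042).

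Below a mean signal of 100, Kcnc1, Kcnc2 and Kcna3 were called lower. The mean signals of Kcnc2 (23.5) and Kcna3 (15.8) lay near or below the floor of 20. Their calls were all lost without the adult arrays (adjusted p = 0.16 to 0.33) and without the older ones (0.11 to 0.31). Kcnc1, a Kv3 channel like Kcnc4, was 50.2, 86.9 and 58.5 with no fracture and 10.4, 35.1 and 22.9 at 3 days (2.51-fold lower, adjusted p = 0.0055). It was called lower up to 4 weeks. These calls of Kcnc1 were lost without the older arrays (0.07 to 0.26) and with the actin ratio in the model (0.1 to 0.15). Kcnd2, an A-type channel, passed only from 3 days to 6 weeks, with a 3.4-fold rise to 121, 83.2 and 101 (adjusted p = 0.019). The remaining 17 Kv pore genes, Kcnh2 and Kcnd2 included, were called against no fracture at no time, among them Kcna1, Kcna2, Kcna4, Kcna5, Kcna6, Kcnb2 and Kcnq1.

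Sodium channels of sensory neurons were at low levels. Of 9 measured pore subunits, 5 passed at some time, with 50.3% of all probe sets doing so. Scn10a, the Nav1.8 of pain-sensing neurons, was 84.9 (young), 63.3 (adult) and 44.7 (older) with no fracture. At 3 days all arrays were below the floor of 20, at 14.4, 8.9 and 6.3, and the floored fall was 3.11-fold (adjusted p = 0.0062). It was lower at 1 and 2 weeks too. At 4 and 6 weeks it did not pass, with 33.7, 66.2 and 27.5 and 66.4, 66.7 and 8.0. The calls at 1 and 2 weeks were lost whichever age was left out (adjusted p = 0.055 to 0.15). That at 3 days was lost without the young arrays (0.077). None of the Scn10a calls passed with the actin ratio in the model (0.18 to 0.33). Scn9a, the Nav1.7 of the same neurons, fell 2.46-fold at 1 week (adjusted p = 0.036), and Scn2a fell 1.77-fold at 2 weeks (adjusted p = 0.021). The call of Scn9a was lost without the adult arrays (0.21) and without the older ones (0.27). That of Scn2a was lost whichever age was left out (0.051 to 0.21). Scn1a, Scn3a, Scn8a and Scn11a passed at no time, and Scn3a, the only one of these with a mean above 100, ran from 78.4 to 203. The beta subunit Scn2b read 20.3 to 23.9 with no fracture and 2.1 to 15.7 after fracture, so its calls compare signals just above the floor of 20 with signals below it. Of 9 measured neuron markers 1 rose and 1 fell at 3 days, and their summed signal was 829 to 1221 with no fracture and 867 to 1098 at 3 days.

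Calcium channel pores other than Cacna1s did not pass by their brightest probe set. Of the 8 pore subunits, 6 had a mean signal of at least 100. Cacna1a, the P/Q-type channel of nerve terminals, ran from 361 to 809, and Cacna1g, a T-type channel, from 232 to 469. Cacna1c, the L-type channel of heart, smooth muscle and osteoblasts, was 255, 332 and 235 with no fracture and 254, 354 and 339 at 3 days (log2 change 0.21, SE 0.19). Its adjusted p was 0.42. Cacna1b and Cacna1e had log2 changes between -0.29 and 0.39 and Cacna1d and Cacna1h stayed below 100. The second probe set of Cacna1b had log2 changes of -0.96 to -0.84 from 3 days to 4 weeks. That of Cacna1c had -1.13 at 3 days and -1.19 at 1 week. None of these passed, with adjusted p from just above 0.05 to 0.11. The probe sets of Cacna1d disagreed. The second, with a mean signal of 35.7 against 37.7 for the first, read 68.5, 74.2 and 64.9 with no fracture and 12.8, 29.2 and 14.7 at 3 days. It was called lower at 3 days (log2 change -1.61, adjusted p = 0.00091), 1 week (-1.33, 0.0034), 2 weeks (-1.02, 0.015) and 4 weeks (-1.44, 0.0058), where the first had changes from -0.41 to 0.51. A dim probe set of Cacna1a, with a mean signal of 19.9, was lower at 1 week (log2 change -0.48, adjusted p = 0.042). Each of the 6 accessory genes passed at some time, where 50.3% of all probe sets did. Besides the 4 described, Cacnb2 was 39.9 (young), 229 (adult) and 127 (older) with no fracture and 13.3, 25.5 and 19.8 at 3 days (adjusted p = 0.021), and Cacnb4 fell 1.89-fold at 1 week (adjusted p = 0.046). The fall of Cacnb2 did not pass without the adult arrays (0.18) or the older ones (0.21). That of Cacnb4 did not pass without the young arrays (0.32) or the adult ones (0.31).

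Inward rectifiers were split. Of 15 genes, 6 passed at some time (50.3% of all probe sets). Kcnj1, the ROMK channel of the kidney, was 328 (young), 492 (adult) and 303 (older) with no fracture. It was 159, 248 and 179 at 3 days, 177, 255 and 113 at 2 weeks and 268, 137 and 129 at 4 weeks, and 249.8, 224 and 286 and 353, 224 and 277 at 1 and 6 weeks. The arrays at these 3 times were below all unfractured arrays, by 1.91-fold (adjusted p = 0.047), 2.13-fold (0.029) and 2.18-fold (0.036). Without the older arrays none passed (0.17 to 0.25), and the second probe set had smaller changes (log2 -0.31 to -0.67) that did not pass. The third probe set, a dim one that read 62.7, 80 and 43.3 with no fracture, was called lower at 3 days (log2 change -1.55, adjusted p = 0.0032), 1 week (-1.56, 0.0036), 2 weeks (-1.55, 0.0042) and 4 weeks (-1.18, 0.026). Kcnj10, the Kir4.1 of glia, was 130.2 (young), 114 (adult) and 128 (older) with no fracture. The 3-day arrays read 28.9, 16.5 and 34.3, below all unfractured arrays by 4.57-fold (log2 change -2.19, SE 0.30, adjusted p = 0.00026). It had risen 3.1-fold by 6 weeks (adjusted p = 0.0039), to 88.2, 101 and 66.3. Its second probe set, with a mean signal of 22.5, had a log2 change of -0.36 at 3 days (adjusted p = 0.17) and was lower at 1, 2 and 4 weeks (log2 -0.64, -0.63 and -0.65). Schwann cell markers fell in 2 and rose in 1 of 6 at 3 days, and their summed signal was 1943 to 2435 with no fracture, 1065 to 1233 at 3 days and 2183 to 2750 at 6 weeks. The part of Schwann cell content in the fall of Kcnj10 was not tested. Kcnj15 ran from 38.2 to 301 and did not pass. Its unfractured arrays spread widely (132.5, 190.3 and 38.2). At 1 week its arrays were all above these, at 221, 267 and 239.8 (2.45-fold, adjusted p = 0.19). Kcnj3, Kcnj4, Kcnj6, Kcnj9, Kcnj13 and Kcnj16 were below 100 and did not pass. The second probe sets of Kcnj3 and Kcnj4, with mean signals of 18 and 33, were called lower at 3 days, 1 week and 2 weeks.

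Accessory potassium channel subunits and calcium-activated channels complete the set. Kcnmb1, the smooth muscle partner of Kcnma1, ran from 364 to 792 and passed at no time. Kcne1, the partner of Kcnq1 in the heart, fell 1.98-fold at 2 weeks (adjusted p = 0.034), from 188, 233 and 178 to 148, 71.5 and 95.2. This did not pass without the adult or the older arrays (adjusted p = 0.21 in both) or with the actin ratio in the model (0.55). Kcnab3 had a mean signal of 16.1, under the floor of 20. None of Kcnn1, Kcnn3, Kcnma1 and Kcnt1 passed. In all, 14 channel genes had a mean signal under 20, and 3 of them were under 20 on all 18 arrays.

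Genes of proteins that work with channels moved in both directions. Of 18 measured partner genes (anchors, kinases, chloride and pacemaker channels, and the sulfonylurea receptors Abcc8 and Abcc9) 3 fell and 2 rose at 3 days, with a median log2 change of -0.16. In either direction 5 of the 18 passed at 3 days, 6 at 1 week, 8 at 2 weeks, 4 at 4 weeks and 5 at 6 weeks, where 39.3%, 35.8%, 32.8%, 21.2% and 15.4% of all probe sets passed. At 2 weeks 4 rose and 4 fell. Of 7 measured genes of the sodium pump and its regulators 2 fell and 1 rose at 3 days, and none fell at 6 weeks while 2 rose.

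No channel gene passed for age alone. For older against young rats over all 6 times, 0 of the 78 genes passed in limma, where 0.446% of all probe sets passed in either direction. The lowest unadjusted p-values were those of Kcna1, Cacna1g and Kcnh5. Their log2 differences (older minus young) were -1.0 (adjusted p = 0.14), -0.35 (SE 0.10, adjusted p = 0.15) and -0.42 (adjusted p = 0.16). Kcnc4 differed by 0.57 (adjusted p = 0.2), Scn7a by -0.85 (adjusted p = 0.22) and Cacng1 by 0.33 (adjusted p = 0.31). The methods' t-test, run here at an unadjusted threshold of 0.005, called 1 gene, Kcna1, and none after Benjamini-Hochberg adjustment. Asked whether the effect of fracture at 4 and 6 weeks differed between older and young rats, 3 of 78 genes passed, Cacnb2, Kcna3 and Scn2b, where 3.02% of all probe sets passed. With 1 unfractured array per age, this fit takes its spread from the later times alone, so its SE and p leave out the spread of unfractured arrays. All 3 had a mean signal under 100. For the muscle genes the differences of effect did not pass, as with Kcnj11 (log2 -0.78, SE 0.24, adjusted p = 0.18) and Cacna1s (-0.06, SE 0.40).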

How the data were processed

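The authors deposited 1 signal intensity per probe set of Affymetrix rat genome arrays, computed in Microarray Suite 5.0 with every array scaled to a mean of 500. The trimmed mean (2% off each end) was 500.7 to 500.8 on each array, so a signal is relative to the rest of its array. Arrays have no sequencing depth. The number of arrays limits the precision, and 12.2% to 20.1% of signals per array lay under 20. Detection calls were not used here.

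Of 8799 probe sets, 59 controls were left out and 8740 tested. Symbols came from the platform annotation. Signals below 20 were set to 20, log2 was taken, and folds are on that scale. The fit in limma 3.58.1 (R 4.3.3) had time and age as additive factors over all 18 arrays (10 residual degrees of freedom, trend allowed). A second fit nested age in phase (4 residual degrees of freedom) and gave the interaction at 4 and 6 weeks, which compares older minus young at these times with older minus young at no fracture. Adjusted p is Benjamini-Hochberg over all probe sets, called below 0.05. The fit was tested on simulated data. Group values before the floor are given per array.

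The channel genes and the gene lists were chosen with earlier results of these data known. Values of every array are given for called channel genes with a mean signal of 200 or more and for the muscle channel list. Exceptions are Kcnh3, Kcnj12, Kcnj2 and Kcnma1, where some or all arrays are given only as a range or limit. For other genes array values are given where a result turns on them. Up to 8 called genes below 100 were to be described by lowest adjusted p, and further ones were named after their values were seen. Alternatives were median centring, quantile normalization, a floor of 100, log2(signal + 50), a mean signal of at least 200, only the arrays compared, the actin 3′/5′ ratio as covariate, age left out, the methods' t-test, the second brightest probe set and each age left out. Marker sums are of unfloored signals. Promoter windows came from RefSeq (GRCr8). Python 3.11.15, pandas 2.3.3, numpy 2.4.6 and matplotlib 3.10.9 were used for tables and plots.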

Additional observations from a re-analysis of the deposited data

Results flagged for a closer look

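For 3 genes the age difference (older minus young) at 4 and 6 weeks departed from that with no fracture (limma, adjusted p below 0.05). The unfractured side is 1 young and 1 older array, and the fit takes its spread only from how the ages differ between 1 and 2 weeks and between 4 and 6 weeks. The p therefore leaves out the spread of unfractured arrays, and no SE or p is given here. Their interaction, the late difference less the unfractured one, is given on the log2 scale. For Cacnb2 it was -3.43. The signal was 39.9 (young), 229 (adult) and 127 (older) with no fracture, 76.1, 16.6 and 20.2 at 4 weeks and 72.3, 20.6 and 23.6 at 6 weeks, so the young arrays were the lowest before fracture and the highest late. The older late arrays lay just above the floor of 20. The 8 settings run, which share this limit, gave values from -3.62 to -0.34. For Kcna3 it was -0.39. All late arrays of Kcna3 were below the floor of 20, so the value comes from 20.6 in young and 27 in older rats with no fracture. For Scn2b it was 0.08. All late arrays of Scn2b were below the floor as well, and with quantile normalization the sign turned (-0.07).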

How the results depend on the processing

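The counts of called channel genes were 25 at 3 days, 21 at 1 week, 23 at 2 weeks, 12 at 4 weeks, 9 at 6 weeks, 10 from 3 days to 6 weeks, 0 for age and 3 for the interaction. In the same order, the actin ratio as covariate gave 6, 3, 2, 2, 9, 2, 0 and 2, and only the arrays compared gave 6, 2, 0, 0, 0, 0, 0 and 2. The methods' t-test gave 7, 5, 5, 1, 1, 7 and 1 at an unadjusted p below 0.005 and 8, 7, 5, 0, 0, 5 and 0 after Benjamini-Hochberg adjustment, with no interaction. Among the 16 genes with a mean signal of at least 200 there were 8, 4, 5, 4, 4, 5, 0 and 1, fewer since fewer genes were tested. A floor of 100 gave 11 at 1 week, 15 at 2 weeks, 4 from 3 days to 6 weeks and 1 interaction. The second brightest probe set gave 5 from 3 days to 6 weeks. log2(signal + 50) gave 1 for age (Kcnn3) and 1 interaction, and median centring 1 interaction. Leaving out 1 age gave 11 to 19 at 3 days, 4 to 17 at 1 week, 3 to 18 at 2 weeks, 0 to 17 at 4 weeks, 0 to 12 at 6 weeks and 2 to 7 from 3 days to 6 weeks. The lowest counts came without the older rats up to 6 weeks and without the adult rats from 3 days to 6 weeks. The second brightest probe set reversed Kcnh3 at 4 and 6 weeks (0.68 and 0.66) and Scn4a at 3 days (0.63). No other direction of the 90 calls turned under any alternative run, and 2 of the 90 passed under every alternative run. The cause of these differences was not tested, apart from the smaller number of genes or arrays that some settings use. Age, a term of the fit, is the replicate block that pairs the arrays of a time with those of no fracture. Without this block the counts were 24, 18, 19, 10, 7 and 8 for the 6 comparisons of times. With 3 arrays per time and 45 of 78 genes below a signal of 100, a change that did not pass may still exist.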
